A study of Mus musculus with 8 samples.

Results

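The interferon-inducible GTPases and the antigen presentation genes described here are 34 named genes of a deposited expression table of 55401 genes, and all 34 were found in the table by their gene names. They comprise 9 guanylate-binding proteins (GBPs), 7 immunity-related GTPases (IRGs), 5 regulators of the response, 9 genes of the MHC class I pathway and 4 of the MHC class II pathway. RNA was sequenced from the cortical bone of C57BL/6J mice, the compact layer around the marrow. The 4 control libraries came from Ripk4fl/fl mice, in which Ripk4, a receptor-interacting serine/threonine kinase, carries floxed alleles on both chromosomes, and the 4 KO libraries from UbcCre/ERT2 Ripk4fl/fl mice. The labels add 4 weeks for both groups, which may be the animals' age or a time since Cre was induced. The KO mice carry a Cre recombinase that needs a drug to act and is driven by the ubiquitin C promoter, which is active in most cell types. The controls carry the same floxed alleles and no Cre, so an effect of Cre and an effect of the deletion cannot be told apart. The labels name no drug treatment and do not say whether each library is 1 mouse or a pool, so p-values measure the spread between these libraries only.

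Interferon gamma, made chiefly by T cells and natural killer cells, binds a receptor that activates a transcription factor, which binds a DNA element called the gamma-activated site (GAS). Factors of the IRF family, among them IRF1, bind another element, the interferon-stimulated response element (ISRE). Among the genes switched on are the GBPs and IRGs, which attack membranes around intracellular microbes, and the genes that cut peptides and display them on MHC class I and class II molecules for T cells to read.

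Estimated counts totalled 61092688 to 66774693 per library, and 22818 to 24525 genes had at least 1. Ripk4 had counts of 10, 4, 0 and 4 in the control libraries against 0, 12, 0 and 0 in the KO libraries, too low to check the genotypes. The mitochondrial genome's share of counts was 5.56% to 6.17% in control 1 and the KO libraries, and control 2, control 3 and control 4 had higher shares, up to 16.1%. Of 12 osteoblast and osteocyte markers, 12 were detected, with a summed level of 4286 to 7200 FPKM in control against 1368 to 2380 in KO. Neutrophil markers summed to 30516 to 43554 FPKM in control against 59587 to 71791 in KO, so their transcripts were abundant in every library. Levels are in FPKM, fragments adjusted for transcript length and sequencing depth.

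Of the 34 genes, 14 were lower in KO and 0 were higher, at an adjusted p under 0.05 in the edgeR test over 20152 genes. The 14 are 41.2% of the 34, where this test called 5.03% of all tested genes lower and 5.31% higher. At an unadjusted p under 0.05 there were 22 lower and 1 higher, where 14.0% of all tested genes passed in each direction. DESeq2 called 21 lower and 1 higher, where it called 10.6% of all genes lower and 10.2% higher, and the member higher by both was Tap2. All 34 were tested. The median log2 fold change of KO over control was -0.69, against -0.02 over all tested genes, and 32 of the 34 fold changes were below 0, against 51.6% of all genes. After library scaling every KO library was below every control library for 20 of the 34, where this held for 11.3% of all tested genes, and every KO library was above for 1. The 14 were 6 of 7 IRGs, 4 of 4 class II genes, 2 of 9 class I genes, 1 of 9 GBPs and 1 of 5 regulators. Leaving out control 2 left 4 of these calls (1.61% of all genes called lower), leaving out control 3 left 5 (1.56%), leaving out KO 3 left 6 (1.74%) and leaving out control 4 left 9 (1.8%). With control 3 and KO 4 both left out it was 5 (2.81%).

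**Figure D1:**
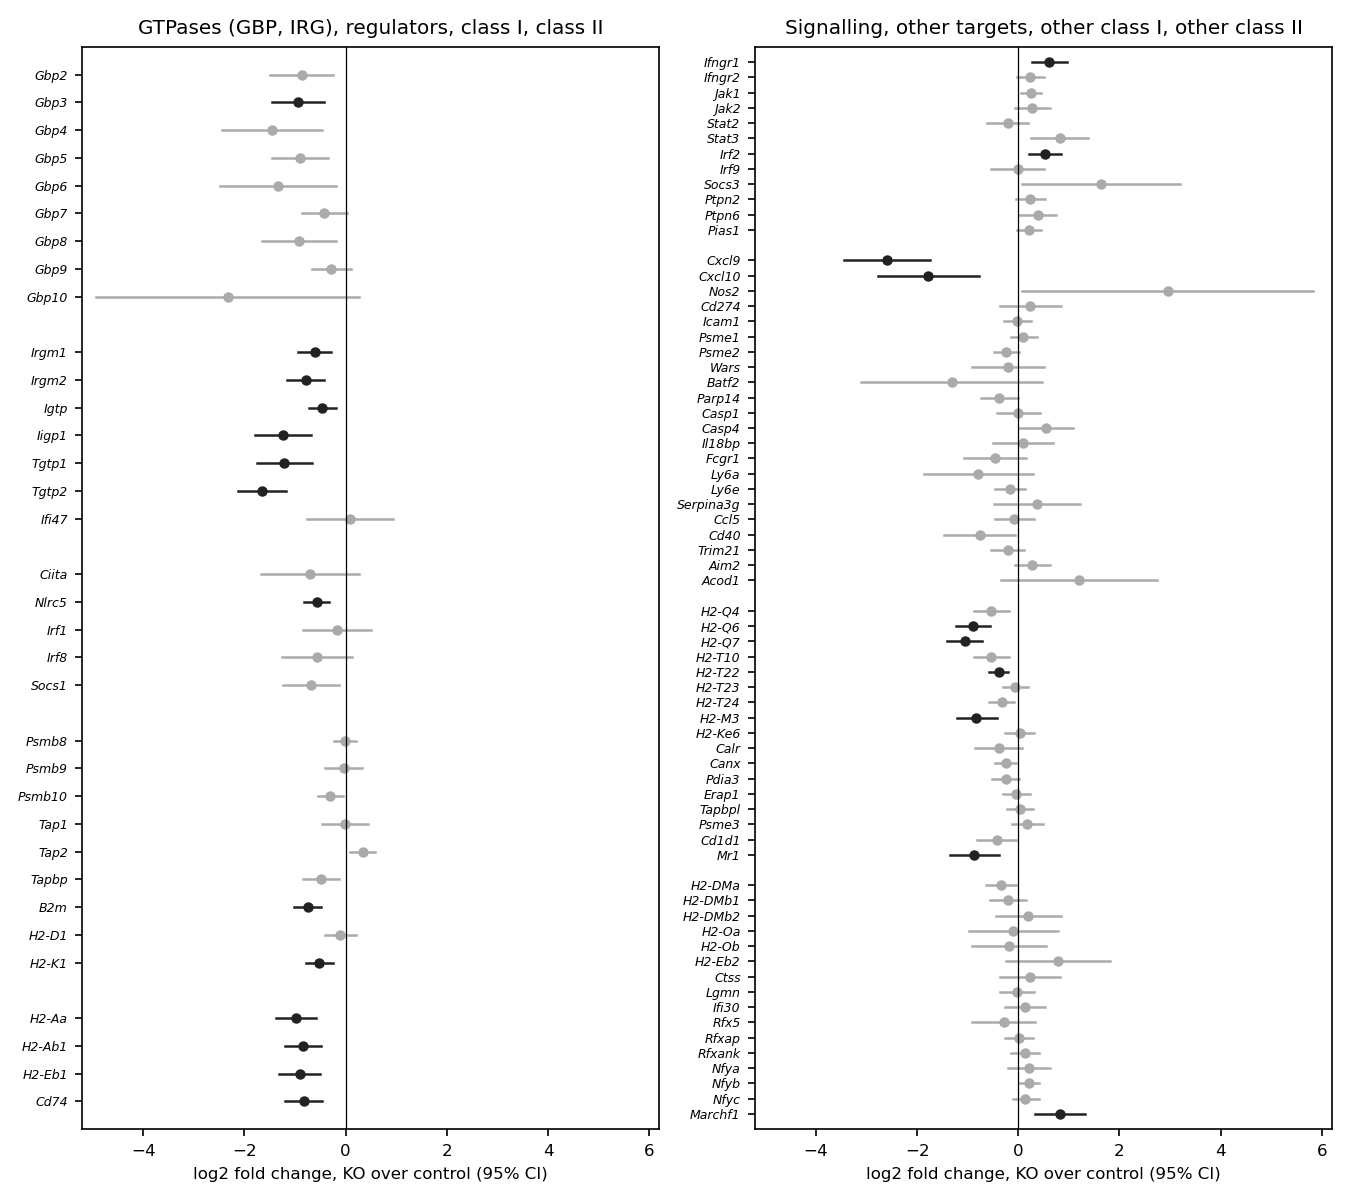
Log2 fold change of KO over control (x axis, points) with its 95% confidence interval (lines) for the 34 genes on the left, grouped from top to bottom as GBPs, IRGs, regulators, class I and class II, and for other genes of the pathway on the right; black marks genes at an adjusted p under 0.05. All 4 class II genes and 6 of 7 IRGs lie left of 0 in black, whereas Psmb8, Psmb9, Tap1, H2-D1 and Ifi47 sit nearest to 0.

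The IRGs are shown first with the sequence before their start sites, since 6 of these 7 genes were called and most carry the same pair of elements. RefSeq promoters (GRCm38.p6, the build of the deposited table) were found for 23 of the 34 genes, 27 in all since some genes have more than 1. GAS was searched as TTCNNNGAA, which reads the same on both strands, and ISRE as GAAA, any 2 bases and GAAA again on both strands, in the 250 bases before each start. Of the 27 promoters, 9 held a GAS, against 7.02% of all 32851 promoters, and 11 held an ISRE, against 2.98%. The lines below give the 150 bases before the start, 5′ to 3′ on the gene's own strand, with GAS and ISRE letters in capitals.
Tgtp2, chr11:49064213-49064362, minus strand: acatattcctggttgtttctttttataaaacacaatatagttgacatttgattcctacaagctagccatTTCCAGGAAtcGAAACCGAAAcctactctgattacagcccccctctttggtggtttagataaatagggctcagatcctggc
Tgtp1, chr11:48992247-48992396, minus strand: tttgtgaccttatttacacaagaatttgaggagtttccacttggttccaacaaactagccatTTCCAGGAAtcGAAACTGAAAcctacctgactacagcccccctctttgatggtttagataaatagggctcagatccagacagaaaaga
Irgm2, chr11:58214827-58214976, plus strand: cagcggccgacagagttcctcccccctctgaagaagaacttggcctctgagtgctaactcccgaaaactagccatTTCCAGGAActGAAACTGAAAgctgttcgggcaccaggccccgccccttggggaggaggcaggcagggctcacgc
Igtp, chr11:58199406-58199555, plus strand: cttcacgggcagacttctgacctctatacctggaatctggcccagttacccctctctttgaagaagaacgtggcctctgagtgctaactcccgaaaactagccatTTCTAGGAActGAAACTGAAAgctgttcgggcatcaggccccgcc
Irgm1, chr11:48871421-48871570, minus strand: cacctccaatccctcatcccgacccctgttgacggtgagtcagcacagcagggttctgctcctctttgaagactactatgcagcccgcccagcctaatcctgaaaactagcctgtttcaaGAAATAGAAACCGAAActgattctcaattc
Ifi47, chr11:49076437-49076586, plus strand: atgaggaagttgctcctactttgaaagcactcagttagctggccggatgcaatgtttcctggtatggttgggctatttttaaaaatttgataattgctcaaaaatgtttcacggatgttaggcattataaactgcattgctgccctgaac
In Tgtp2, Tgtp1, Irgm2 and Igtp the GAS lies 2 bases upstream of the ISRE. The Irgm1 window holds 2 overlapping ISRE matches and no GAS. The Ifi47 window holds neither run of letters, and no window was found for Iigp1. Looser forms of the elements were not searched, and whether calls go with these letters was not tested. These matches describe letters and show no binding.

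Tgtp2 and Tgtp1 encode near-identical IRGs that load onto vacuoles of parasites, and Tgtp2 (chromosome 11, 49057194 to 49064206, minus strand) had the smallest p of the 34 genes. Tgtp2 stood at 9.94, 11.7, 10.9 and 6.91 FPKM in control 1 to 4, against 3.58, 2.95, 3.49 and 2.35 in KO 1 to 4. The groups were far apart, with every KO library well below the lowest control library. Its mean fell from 9.87 ± 2.11 to 3.09 ± 0.565 FPKM (SD, n = 4 per group). The log2 fold change was -1.66 ± 0.21 (SE; edgeR adjusted p = 0.00632). Tgtp1 (chromosome 11, 48985327 to 48994172, minus strand) stood at 4.42, 3.56, 5.95 and 4.05 FPKM in control against 2.11, 1.92, 2.32 and 1.34 in KO. Its log2 fold change was -1.22 ± 0.24, with an edgeR adjusted p of 0.0191, and both calls held with any 1 library left out. Since 79.4% of the 50-base runs of Tgtp1 transcripts also occur in Tgtp2, how the reads were split between them is uncertain. Counts summed over both genes, a step chosen after seeing the data, gave a log2 fold change of -1.49 ± 0.19 (edgeR adjusted p = 0.00729).

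Iigp1, an effector IRG that also acts on vacuoles, also fell. Its levels were 4.07, 4.95, 6.04 and 3.65 FPKM in control against 2.39, 1.73, 2.35 and 1.42 in KO, with no overlap. The log2 fold change was -1.24 ± 0.24 (edgeR adjusted p = 0.018), and the call was lost only without control 2 (adjusted p = 0.0523).

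The regulatory IRGs, Irgm1, Irgm2 and Igtp, sit on the cell's own membranes and hold the effector IRGs in check there. Irgm2 stood at 11.4, 12.9, 13.2 and 9.79 FPKM in control against 8.24, 5.77, 7.08 and 5.89 in KO. Irgm1 stood at 6.53, 7.65, 7.97 and 6.08 FPKM in control against 4.93, 4.40, 4.07 and 4.83 in KO. Igtp, the most abundant IRG by FPKM, stood at 30.0, 27.7, 26.3 and 28.8 FPKM in control against 24.2, 20.9, 20 and 15.5 in KO. None of the regulatory genes had overlapping groups, and their fitted falls were smaller than those of Tgtp1, Tgtp2 and Iigp1, a difference that was not tested. Log2 fold changes were -0.79 ± 0.16 for Irgm2, -0.61 ± 0.14 for Irgm1 and -0.46 ± 0.12 for Igtp, with edgeR adjusted p of 0.0228, 0.0341 and 0.0454. The Igtp call held only without KO 1 or KO 4, that of Irgm1 only without control 1, control 4 or KO 4, and that of Irgm2 was lost without control 2, control 3 or KO 3. Irgm2 and Igtp overlap by 7974 bases on 1 strand. Their summed counts, a step chosen after seeing the data, gave a log2 fold change of -0.59 and an edgeR adjusted p of 0.0216.

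Ifi47 stood apart from the other IRGs. It encodes a further IRG and lies beside Tgtp2 on chromosome 11 (49076587 to 49096974, plus strand). The gene model Olfr56, with counts up to 374, overlaps it by 20388 bases on the same strand. Its levels were 9.22, 23.2, 18.4 and 6.79 FPKM in control against 19.2, 14.4, 13.6 and 13.7 in KO. The control libraries spread widely and enclosed all 4 KO libraries. The log2 fold change was 0.09 ± 0.37 (edgeR adjusted p = 0.903), and the 95% interval of the fold ran from 0.59 to 1.92, so a fall as large as that of Igtp or Irgm1 is within it. The sign turned to -0.09 without control 1, -0.15 without control 4 and -0.03 without KO 1.

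**Figure D2:**
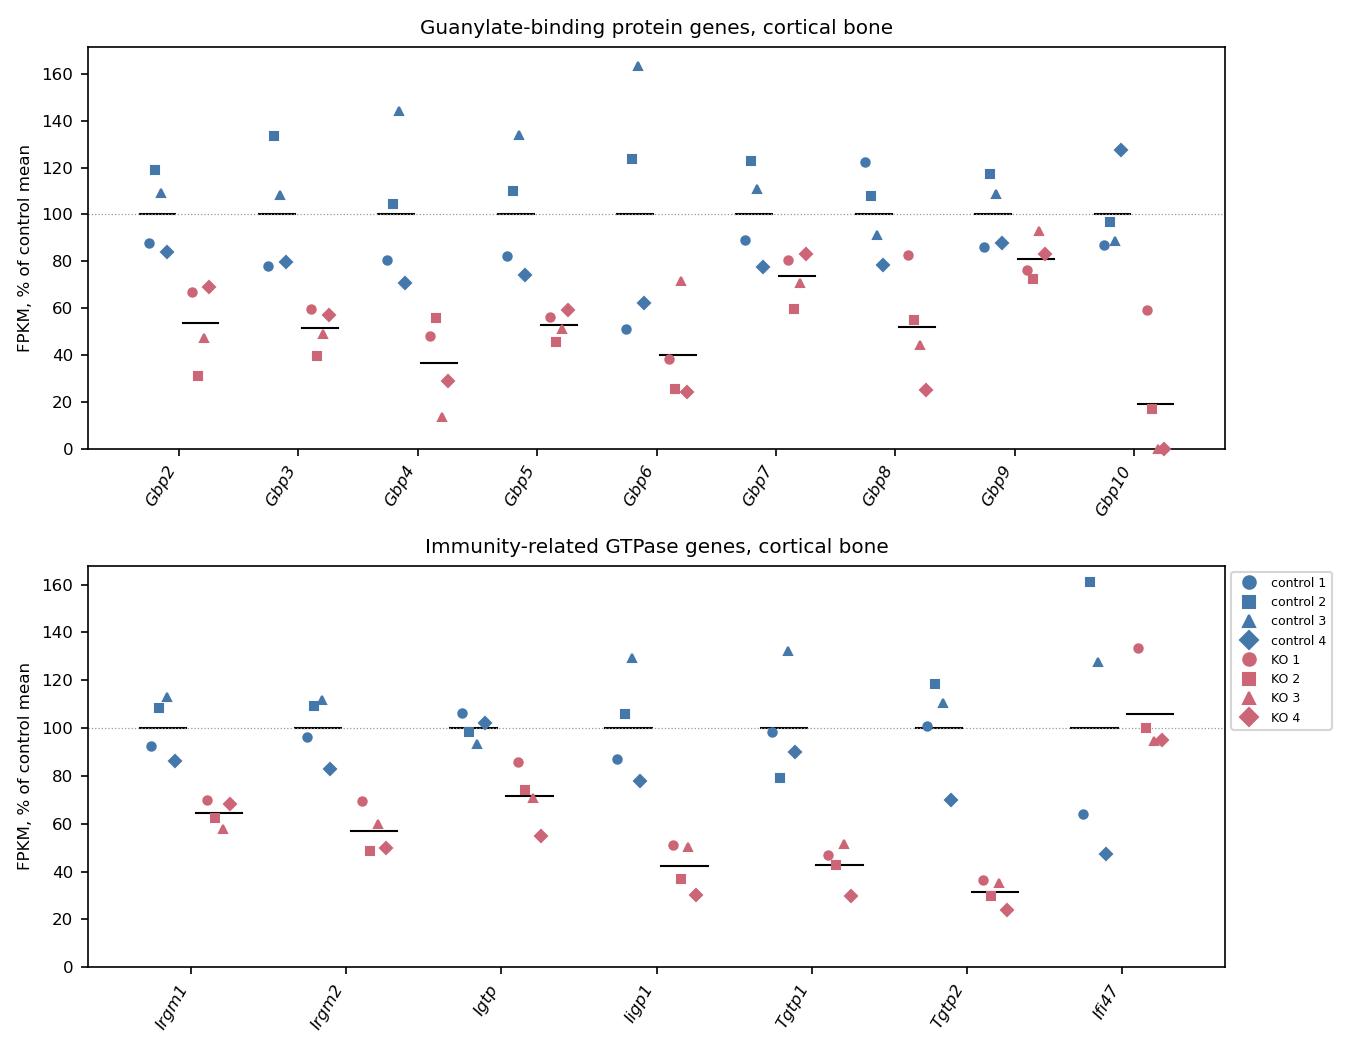
FPKM of each GBP gene (top) and IRG gene (bottom) in every library, as a percentage of the gene's control mean; points are libraries, blue for control and red for KO, and bars are group means. Tgtp2 shows the KO libraries far below the controls, while the control libraries of Ifi47 lie on both sides of the KO libraries.

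The GBPs, large GTPases that gather on microbial vacuoles, were lower in the fitted fold change for 9 of 9 genes, but 1 of 9 passed the test. Their median log2 fold change was -0.93, and after scaling 5 of 9 had separate groups. In the chromosome 3 cluster of 4 genes the median was -0.89. In the chromosome 5 cluster of 5 genes it was -1.33 with 0 edgeR calls, where 3 were lower at an unadjusted p under 0.05 (14.0% of all genes) and 3 with DESeq2 (10.6%). Windows of Gbp3, the called gene, and of Gbp2 and Gbp7 are printed to show the ISRE in capitals, here on the opposite strand, and in Gbp7 also a pair of GAS. All 4 GBPs with a window (Gbp2, Gbp3, Gbp5 and Gbp7) held an ISRE.
Gbp3, chr3:142559894-142560043, plus strand: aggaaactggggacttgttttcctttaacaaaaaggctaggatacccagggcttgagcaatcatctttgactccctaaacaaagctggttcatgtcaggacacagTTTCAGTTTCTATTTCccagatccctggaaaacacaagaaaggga
Gbp2, chr3:142620513-142620662, plus strand: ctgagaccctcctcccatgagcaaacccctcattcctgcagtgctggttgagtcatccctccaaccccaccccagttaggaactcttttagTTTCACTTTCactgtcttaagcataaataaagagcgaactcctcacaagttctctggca
Gbp7, chr3:142530186-142530335, plus strand: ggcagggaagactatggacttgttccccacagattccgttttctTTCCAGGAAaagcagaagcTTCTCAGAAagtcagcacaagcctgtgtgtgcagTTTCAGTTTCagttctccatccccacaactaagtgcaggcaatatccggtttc
Gbp3 stood at 6.60, 11.3, 9.16 and 6.75 FPKM in control against 5.03, 3.35, 4.15 and 4.82 in KO. The groups did not overlap, though control 1 and control 4 lay close to KO 1. The log2 fold change was -0.94 ± 0.23 (edgeR adjusted p = 0.0365), and the call held only without control 1 or KO 4 (adjusted p up to 0.0963 in the other omissions). Gbp2, the most abundant GBP, stood at 11.1, 15.0, 13.8 and 10.6 FPKM in control against 8.44, 3.94, 5.96 and 8.69 in KO. Its groups were separate too, and its log2 fold change of -0.87 ± 0.27 did not pass (edgeR adjusted p = 0.0774). Gbp5, which takes part in inflammasome activation, had means of 1.59 ± 0.434 and 0.843 ± 0.0937 FPKM and just missed the threshold, at a log2 fold change of -0.90 ± 0.24 (edgeR adjusted p = 0.0503). Gbp7, with a pair of GAS and an ISRE in its window, had overlapping groups at 2.63 to 4.17 FPKM in control against 2.03 to 2.83 in KO.

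Of the chromosome 5 genes, Gbp4 stood at 1.56, 2.02, 2.79 and 1.37 FPKM in control against 0.933, 1.08, 0.259 and 0.558 in KO. Its groups were separate, and its log2 fold change of -1.45 ± 0.44 did not pass (edgeR adjusted p = 0.0696). Gbp8 had means of 2.34 ± 0.448 and 1.21 ± 0.561 FPKM and Gbp9 of 2.57 ± 0.393 and 2.08 ± 0.23 FPKM, both with overlapping groups. Gbp6 ran from 0.384 to 1.23 FPKM in control against from 0.181 to 0.538 in KO. Gbp10 was near the limit of detection, with counts of 39, 41, 39 and 57 in control and 28, 8, 0 and 0 in KO. Of the 50-base runs of Gbp10 transcripts, 73.3% occur in Gbp6, and the gene model Gm43302 spans both genes on the same strand, so their reads cannot be assigned with confidence. Summed over these 3 genes, a step chosen after seeing the data, counts were 519, 660, 901 and 702 in control and 382, 201, 269 and 93 in KO. The sums did not overlap, and they gave a log2 fold change of -1.61 ± 0.38 (edgeR adjusted p = 0.0347). The GBP count depends on the test: it was 6 with DESeq2 and 5 with limma on log2(FPKM + 0.5), but 0 without control 2, control 3, control 4, KO 2 or KO 3.

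Other GTPases induced by interferons were fitted below 0 as well. Of 14 listed genes 12 were tested, 12 of 12 log2 fold changes were below 0 with a median of -0.72, and 1 passed with edgeR, 5 with DESeq2 and 6 at an unadjusted p under 0.05, all lower. The edgeR call was Gm12250, an IRG gene, at 3.39, 5.81, 5.58 and 3.84 FPKM in control against 2.85, 2.36, 2.30 and 1.97 in KO. Its log2 fold change was -0.96 ± 0.24 (edgeR adjusted p = 0.0425), and the call held only without control 1.

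Among the regulators, Nlrc5, the transactivator of MHC class I genes, was lower in KO, and Ciita, its class II counterpart, was barely expressed in both groups. Nlrc5 (chromosome 8, 94434356 to 94527272, plus strand) stood at 5.11, 6.71, 5.29 and 5.94 FPKM in control against 4.24, 3.73, 3.49 and 3.71 in KO. The groups were separate. The log2 fold change was -0.57 ± 0.11 (edgeR adjusted p = 0.0186), and 4 single omissions ended the call, those of control 2, control 3, control 4 and KO 3 (largest adjusted p = 0.0582). Ciita stood at 0.402, 0.323, 0.412 and 0.202 FPKM in control against 0.366, 0.182, 0.181 and 0.0887 in KO. KO 1 lay inside the control range, and the log2 fold change of -0.70 ± 0.43 did not pass (edgeR adjusted p = 0.323).

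Irf1, the transcription factor that binds ISRE elements in many of these genes, stood at 19.4, 23.2, 16.3 and 13.5 FPKM in control against 19.2, 14.5, 8.04 and 20.8 in KO. The groups overlapped widely, with a log2 fold change of -0.17 ± 0.30 (edgeR adjusted p = 0.749), and without KO 3 the sign turned to 0.05. Irf8, a transcription factor of monocytes, dendritic cells and B cells, ran from 7.46 to 17.3 FPKM in control against from 6.08 to 13.0 in KO. Socs1, which switches off signalling from the receptor, stood at 1.59, 1.97, 1.85 and 1.13 FPKM in control against 1.11, 0.919, 0.830 and 1.17 in KO. Its groups overlapped at control 4, and its log2 fold change was -0.68 ± 0.25 (edgeR adjusted p = 0.113).

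Upstream of these genes the ligand was barely detected. Ifng, named after its values were seen, had counts of 31, 27, 4 and 21 in control and 8, 6, 7 and 0 in KO and missed the filter on low counts, so it was not tested. Of 12 tested genes of the receptor and its signalling described here, 2 were higher, with a median log2 fold change of 0.26, opposite in sign to that of the GTPases. Of the 12, 10 log2 fold changes were above 0. DESeq2 called 4 higher and 0 lower, where it called 10.2% of all genes higher. At an unadjusted p under 0.05 there were 6 higher and 0 lower, where 14.0% of all genes were higher. Ifngr1, the binding chain of the receptor, stood at 17.4, 20.2, 14.9 and 18.3 FPKM in control against 26.4, 22.2, 23.6 and 32.9 in KO. Irf2, which competes with IRF1 for its sites, ran from 5.51 to 5.81 FPKM in control against from 7.17 to 9.96 in KO. In both genes the groups were separate. Log2 fold changes were 0.61 ± 0.15 for Ifngr1 and 0.53 ± 0.14 for Irf2, with edgeR adjusted p of 0.0391 and 0.0452. Both calls held only without KO 2 or KO 4.

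Of 22 tested other targets of interferon gamma, 2 were lower and 0 higher with edgeR and with DESeq2 (4 lower and 2 higher at an unadjusted p under 0.05), and the median log2 fold change was -0.12. The called genes encode chemokines that draw activated T cells. Cxcl9 stood at 9.58, 7.41, 10.1 and 5.61 FPKM in control against 2.29, 1.37, 0.950 and 0.726 in KO. Its fall was larger than that of any of the 34 genes, at a log2 fold change of -2.60 ± 0.38 (edgeR adjusted p = 0.00889), and it held with any 1 library left out. Cxcl10 ran from 1.03 to 4.51 FPKM in control against from 0.686 to 1.02 in KO, with control 4 just above KO 1. Its log2 fold change was -1.78 ± 0.44 (edgeR adjusted p = 0.0392), and the call held only without control 4.

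In the class I pathway the calls were in genes of the displayed molecule. B2m, the light chain of every class I molecule (chromosome 2, 122147686 to 122153083, plus strand), and H2-K1, a heavy chain, were the 2 of 9 genes called, both lower. The median log2 fold change of the 9 was -0.10. The B2m window held an ISRE 139 to 130 bases before the start, in capitals. B2m was the only 1 of 8 class I pathway genes with a promoter to match the ISRE letters searched. Looser forms of the element were not searched, so the other genes may hold one.
B2m, chr2:122147537-122147686, plus strand: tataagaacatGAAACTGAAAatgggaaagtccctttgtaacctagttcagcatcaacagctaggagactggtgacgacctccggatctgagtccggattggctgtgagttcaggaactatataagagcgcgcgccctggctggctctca
B2m stood at 1439, 1490, 1303 and 1242 FPKM in control against 913, 698, 767 and 818 in KO. The KO libraries lay well below the controls. The log2 fold change was -0.75 ± 0.12 (edgeR adjusted p = 0.0107), and the call held with any 1 library left out. H2-K1 stood at 128, 119, 106 and 106 FPKM in control against 82.1, 68.1, 73.8 and 88.8 in KO. Its groups were separate, with a log2 fold change of -0.52 ± 0.12 (edgeR adjusted p = 0.0312), and the call held only without KO 4 (adjusted p up to 0.0874 in the other omissions).

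H2-D1, the more abundant heavy chain by FPKM, stood at 616, 582, 500.1 and 504 FPKM in control against 518, 419.6, 490.1 and 579.9 in KO. The groups overlapped, and the log2 fold change was -0.10 ± 0.13 (edgeR adjusted p = 0.676). The 95% interval of the fold ran from 0.756 to 1.15. Of the 50-base runs of their transcripts, 12.8% of those of H2-D1 and 9.63% of those of H2-K1 occur in other genes, among them other class I heavy chains, so part of their reads could be misassigned.

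The peptide supply genes had 0 calls with edgeR; Psmb10 and Tapbp were lower and Tap2 higher at an unadjusted p under 0.05, and DESeq2 called Tapbp and Tap2. Psmb8, Psmb9 and Psmb10, the catalytic subunits of the immunoproteasome that cuts proteins into peptides, had means of 20.4 ± 1.45, 9.78 ± 1.57 and 21.7 ± 2.79 FPKM in control. Their KO means were 19.9 ± 1.92, 9.36 ± 1.86 and 17.2 ± 1.01 FPKM. Psmb8 and Psmb9 overlapped between groups with log2 fold changes of -0.01 ± 0.09 and -0.04 ± 0.16, and Psmb10, with separate groups, had -0.30 ± 0.11 (edgeR adjusted p = 0.117). The constitutive subunits that they replace, Psmb5, Psmb6 and Psmb7, gave 0 calls of 3 with edgeR, with DESeq2 and at an unadjusted p under 0.05, and a median of 0.02.

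Tap1 and Tap2, which together pump peptides into the endoplasmic reticulum, also had no call. Tap1 stood at 11.2, 13.2, 11.1 and 7.33 FPKM in control against 12.7, 9.12, 11.6 and 8.44 in KO, with a log2 fold change of -0.01 ± 0.20 (95% interval of the fold 0.723 to 1.37). Tap2 stood at 26.3, 27.0, 23 and 23 FPKM in control against 33.5, 28.8, 35.4 and 25.8 in KO. In FPKM only KO 4 lay within the control range, while after library scaling every KO library was above every control library. The log2 fold change of 0.34 ± 0.11, the largest above 0 of the 34, did not pass (edgeR adjusted p = 0.0817). Tapbp, which loads peptides onto class I molecules, had means of 29.2 ± 7.69 and 20.3 ± 1.41 FPKM and shares 3422 bases with Zbtb22 on the same strand. Its log2 fold change was -0.48 ± 0.16 (edgeR adjusted p = 0.0875).

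Ratios of FPKM within a library set these genes against each other and do not depend on library scaling. The 13 ratios were chosen after the values were seen. The H2-D1 to B2m ratio was 0.428, 0.391, 0.384 and 0.406 in control and 0.567, 0.601, 0.639 and 0.709 in KO. The H2-K1 to H2-D1 ratio was 0.209, 0.204, 0.212 and 0.210 in control and 0.159, 0.162, 0.151 and 0.153 in KO. In both ratios the groups were separate, with H2-D1 taking a larger share beside both partners in KO. Each gave p = 0.0286 in a two-sided exact permutation test, the smallest that 70 assignments of 8 libraries allow. After Benjamini-Hochberg adjustment over the 13 it was 0.0531, which does not pass. At this smallest p the adjusted value is set by how many of the 13 ratios reach it. It therefore cannot tell how far apart the groups of any 1 ratio lie. The Psmb8 to Psmb5 ratio was 0.260 ± 0.022 in control and 0.261 ± 0.0296 in KO (exact permutation p = 0.971, adjusted 0.971). The Tap1 to B2m ratio was 0.00776 ± 0.00132 in control and 0.0131 ± 0.00205 in KO, with separate groups (exact permutation p = 0.0286, adjusted 0.0531).

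**Figure D3:**
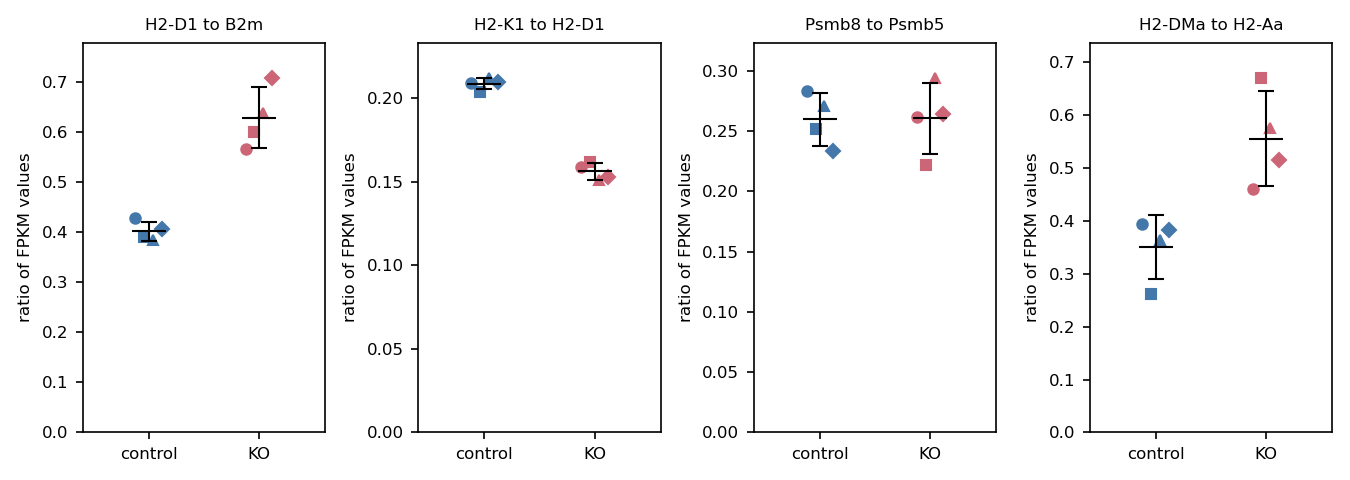
Ratio of the FPKM values of 2 genes within each library (y axis, from 0), for control (blue) and KO (red); points are libraries and black lines are means with SD. H2-D1 to B2m and H2-K1 to H2-D1 separate the groups without overlap, whereas Psmb8 to Psmb5 has means of 0.260 and 0.261.

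Other genes of the class I pathway numbered 17 tested, of which 5 were lower and 0 higher, with a median log2 fold change of -0.38. DESeq2 called 9 lower and 0 higher, and 10 were lower and 0 higher at an unadjusted p under 0.05. H2-Q7 and H2-Q6, non-classical heavy chains of similar sequence whose reads may be split between them, were called with any 1 library left out. H2-Q7 stood at 23, 24.1, 23.5 and 18.3 FPKM in control against 12.2, 8.57, 10.3 and 10.7 in KO. H2-Q6 ran from 35.9 to 44.0 FPKM in control against from 18.2 to 25.7 in KO. Neither gene had overlapping groups, and their log2 fold changes were -1.06 ± 0.15 and -0.89 ± 0.15 with edgeR adjusted p of 0.00885 and 0.0116. H2-M3, which presents formylated peptides, had a log2 fold change of -0.83 ± 0.17 and H2-T22 of -0.38 ± 0.08, with edgeR adjusted p of 0.024 and 0.025. Mr1, which presents vitamin metabolites and is named after its value was seen, had -0.87 ± 0.21 (edgeR adjusted p = 0.0368). Omitting control 2, control 3 or KO 1 ended the H2-M3 call, that of H2-T22 held only without KO 2 or KO 4, and that of Mr1 only without KO 2.

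All 4 class II genes were lower in KO, by 43.5% to 49.4% in the fitted level. The windows of H2-Aa and H2-Eb1 held no match to the GAS or ISRE letters searched. They are printed for the box that the factor NF-Y binds, an inverted CCAAT read as ATTGG, in capitals. The opposite strand was searched too, where the box reads CCAAT, and 33.8% of all promoters hold 1 or the other. H2-Aa holds 1 match and H2-Eb1 holds 2, of which 1 is on the opposite strand.
H2-Aa, chr17:34287824-34287973, minus strand: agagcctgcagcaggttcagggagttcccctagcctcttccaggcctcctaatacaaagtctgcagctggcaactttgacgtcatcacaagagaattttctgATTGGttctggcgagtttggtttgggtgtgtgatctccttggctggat
H2-Eb1, chr17:34305717-34305866, plus strand: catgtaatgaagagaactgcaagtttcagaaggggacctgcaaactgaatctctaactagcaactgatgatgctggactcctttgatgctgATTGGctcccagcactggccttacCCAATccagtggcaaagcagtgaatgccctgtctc
H2-Aa and H2-Ab1 encode the alpha and beta chains of the I-A molecule. H2-Aa (chromosome 17, 34282744 to 34287823, minus strand) stood at 21.6, 26.0, 21.5 and 21 FPKM in control against 14.9, 8.60, 11.5 and 9.74 in KO. H2-Ab1 stood at 27.5, 30.0, 25.7 and 26.1 FPKM in control against 19.6, 11.5, 14.9 and 13.9 in KO. In both genes KO 1 was the highest KO library and still below every control. H2-Eb1, a beta chain of the I-E molecule, stood at 19.5, 20.9, 18.5 and 20.5 FPKM in control against 12.2, 6.97, 12.0 and 9.99 in KO. Cd74, the invariant chain that escorts class II molecules, stood at 105, 97.8, 85.0 and 91.2 FPKM in control against 65.7, 38.3, 51.5 and 53.6 in KO. The 4 genes had the same order at both ends of the KO group, highest in KO 1 and lowest in KO 2. Log2 fold changes were -0.98 ± 0.17, -0.84 ± 0.16, -0.91 ± 0.18 and -0.82 ± 0.16, with edgeR adjusted p of 0.0143, 0.0171, 0.0183 and 0.0182. The H2-Aa call held with any 1 library left out. H2-Ab1 and Cd74 were lost without control 2, control 3 or KO 3, and H2-Eb1 without control 2, control 3 or control 4. The count of class II calls fell to 1 when control 2 or control 3 was omitted and to 2 when KO 3 was, with a largest adjusted p of 0.0576 over the 4 genes, and 0 with control 3 and KO 4 both left out.

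**Figure D4:**
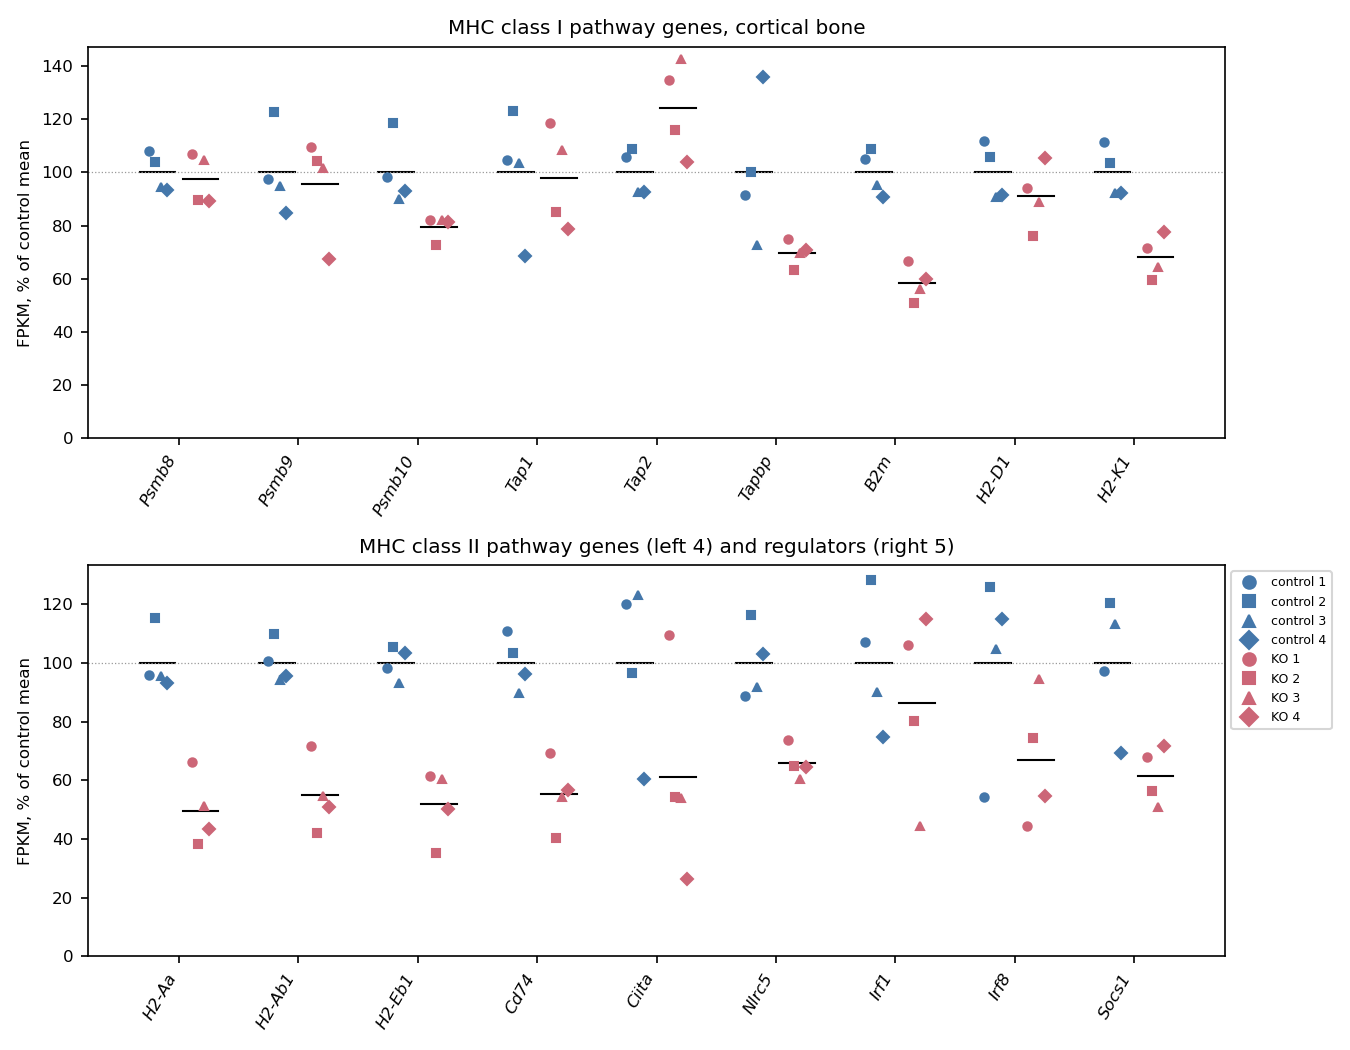
FPKM of each class I pathway gene (top) and of each class II gene and regulator (bottom) in every library, as a percentage of the gene's control mean; points are libraries, blue for control and red for KO, and bars are group means. B2m, H2-K1 and the 4 class II genes show separate groups, while the points of Psmb8, Psmb9, Tap1 and H2-D1 mix.

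No other gene of the class II pathway was called lower by edgeR or DESeq2. Of 16 tested genes, among them the peptide exchange factors, the lysosomal proteases and the RFX and NF-Y factors that bind class II promoters, 0 were lower and 1 was higher, with a median log2 fold change of 0.13 (1 lower and 2 higher at an unadjusted p under 0.05). Marchf1, a ubiquitin ligase that removes class II molecules from the cell surface, stood at 1.44, 1.34, 1.44 and 1.08 FPKM in control against 2.24, 1.65, 2.29 and 2.98 in KO, with no overlap. Its log2 fold change was 0.82 ± 0.22 (edgeR adjusted p = 0.0472), and the call held only without KO 2. H2-DMa, part of the peptide exchange factor and named after its values were seen, ran from 6.78 to 8.53 FPKM in control against from 5.02 to 6.85 in KO (edgeR adjusted p = 0.127). Its ratio to H2-Aa was 0.351 ± 0.0608 in control and 0.555 ± 0.0897 in KO, with separate groups (exact permutation p = 0.0286, adjusted 0.0531).

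Class II genes are made by B cells, dendritic cells and macrophages, and in bulk RNA fewer such cells and less RNA per cell cannot be told apart. Markers of these cells were therefore set beside the class II sum, which ran from 151 to 175 FPKM in control against from 65.4 to 112 in KO. The 10 B cell markers summed to 26.7 to 33.0 FPKM in control against 24.1 to 31.1 in KO. They overlapped between groups, and 1 of 10, Ebf1, was lower; DESeq2 and an unadjusted p under 0.05 also gave 1 lower. The 11 macrophage markers summed to 398 to 540.1 FPKM in control against 297 to 506 in KO, with 1 lower, Mertk, 2 with DESeq2 and 3 at an unadjusted p under 0.05. Of the 11, 10 log2 fold changes were below 0, with a median of -0.40. The 10 dendritic cell markers had 2 lower, Bst2 and Zbtb46, and 1 higher, Ccr7, which is named after its values were seen. DESeq2 called 4 of them lower and 1 higher, and 5 were lower and 1 higher at an unadjusted p under 0.05. Of the 10, 8 log2 fold changes were below 0, with a median of -0.86, beside -0.88 for the 4 class II genes. Bst2 is itself induced by interferons, and without it the other 9 summed to 12.6 to 14.3 FPKM in control against 7.77 to 12.6 in KO. Of these 9, 7 log2 fold changes were below 0, with a median of -0.80, and edgeR called 1 lower and 1 higher. The 12 T and NK cell markers, from cells that make interferon gamma, summed to 82.9 to 119 FPKM in control against 52.3 to 137 in KO with 0 calls, also with DESeq2 and at an unadjusted p under 0.05. Most of this sum was Nkg7, named after its values were seen, with means of 67.7 ± 12.6 FPKM in control and 68.4 ± 27.7 in KO. The sum therefore says little about the other markers of the list. Without 1 library in turn the B cell count ran from 0 to 1, the macrophage count from 0 to 3 and the dendritic cell falls from 1 to 3.

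Markers of other cells moved with the groups as well. Of 12 osteoblast and osteocyte markers 6 were lower, of 10 endothelial markers 3 were lower at summed levels of 124 to 155 FPKM in control against 85.6 to 115 in KO, and of 10 neutrophil markers 7 were higher. With DESeq2 these counts were 10, 7 and 8, and at an unadjusted p under 0.05 also 10, 7 and 8. All 10 endothelial log2 fold changes were below 0, with a median of -0.50. Skeletal muscle markers ran from 134 to 3470 FPKM in control against from 210.3 to 1622 in KO, with 0 of 10 called by edgeR, by DESeq2 or at an unadjusted p under 0.05. Without 1 library in turn the osteoblast count ran from 4 to 9, the endothelial count from 0 to 4 and the neutrophil count from 4 to 8. No marker of any list was at 0 in every library. The part of these cell types, and of the mitochondrial share that was highest in control 3, in the levels of the 34 genes was not tested.

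**Figure D5:**
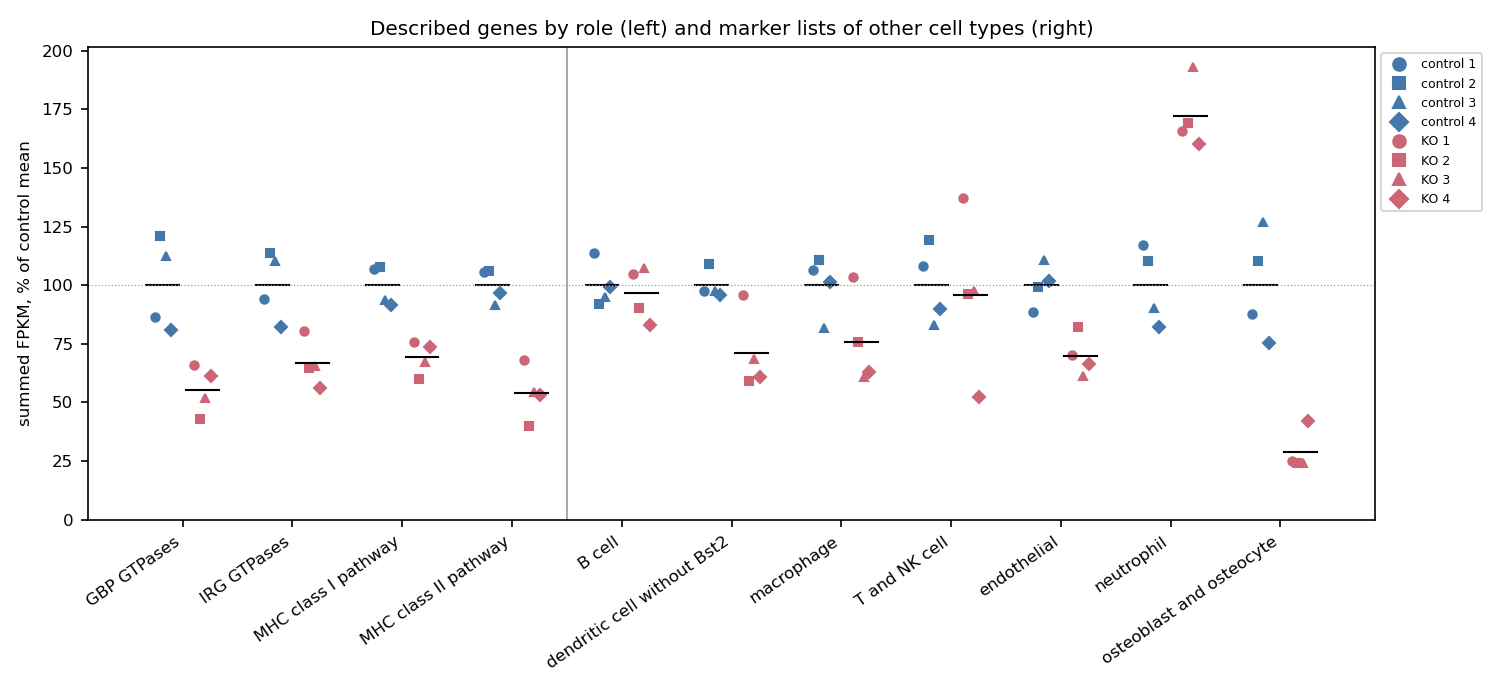
Summed FPKM of the GBP, IRG, class I and class II genes (left) and of marker lists of other cell types (right) in every library, as a percentage of the control mean; points are libraries, blue for control and red for KO, and bars are group means. The class II sum has separate groups, the B cell sum, mostly Cd79a and Cd79b, overlaps, and the neutrophil and osteoblast sums separate in opposite directions. Most of the class I sum is B2m, at mean levels of 1369 FPKM in control and 799 in KO, within mean sums of 2151 and 1487.

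The same libraries stood at the ends of their groups for many of the genes. Control 2 was the highest control library for 18 of the 34 genes and control 4 the lowest for 19. Among KO libraries KO 1 was the highest for 21 and KO 2 the lowest for 15. KO 1 also had the highest macrophage marker sum of the KO libraries, 506 FPKM. The same held for its dendritic cell sum, 55.1 FPKM, and its T and NK cell sum, 137 FPKM. Of that dendritic cell sum 42.5 FPKM was Bst2, and without Bst2 it was 12.6 FPKM, also the highest KO library. For B cell markers KO 3 was highest, at 31.1 FPKM. The lower ends differed between roles, since KO 4 was the lowest KO library for 4 of 7 IRGs and KO 2 for all 4 class II genes.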

How the data were processed

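RNA of 8 cortical bone libraries, 4 control and 4 KO, was analysed from 1 deposited table of 55401 genes. The deposited estimated counts are whole numbers, and rounding changed 0 of them. Low counts pile up at 4 and 8: 4421, 3306, 2724, 7854 and 1566 values are 1, 2, 3, 4 and 5, and 4839 are 8, so 1 count may not be 1 fragment; the cause was not tested. The deposited FPKM values are fragments scaled by the authors to gene length and library size. Per the submitters' processing notes, the tools were HISAT2 2.0.4, StringTie 1.3.4d and DESeq2 and the build GRCm38, with no step assigned to each. The strand setting was not given in the sources read, so reads of overlapping genes could be mixed. Columns were matched to libraries by name, with 0 unused.

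Differences were tested with the quasi-likelihood test of edgeR 4.0.16 (R 4.3.3; TMM scaling, a minimum count of 10 in filterByExpr, two-sided, Benjamini-Hochberg over all 20152 genes, threshold 0.05), after the scripts were tested on simulated counts. Fold changes are log2 of KO over control with SE; FPKM means carry SD. Confidence intervals are at 95%. The 13 ratios were compared by exact permutation in scipy 1.17.1. Alternatives were DESeq2 1.42.0, limma 3.58.1 on log2(FPKM + pseudocount), other scalings, no filter, a replicate block and omitted libraries. Counts totalled 61092688 to 66774693 per library, and since they may not be fragments the depth behind a low count is uncertain. No 2 libraries agreed within sampling noise (smallest chi-square per degree of freedom 90.3). All 34 genes are named; of other pathway lists up to 4 that passed, and of marker lists up to 2, by smallest p. In the receptor and signalling list 1 gene is not reported here and is left out of the list's counts. The genes and lists were chosen with earlier results of these data known, and some further genes were named after their values were seen, as said beside them. Promoters were read from RefSeq (GRCm38.p6), none from chromosome 18. Shared 50-base runs were counted in GENCODE transcripts.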

Additional observations from a re-analysis of the deposited data

Results flagged for a closer look

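In 3 of 68 groups of 4 libraries, 1 library stood far from the other 3 by Dixon's criterion, where chance gives about 1 in 20. Ifi47 was at 19.2 FPKM in KO 1 and at 13.6 to 14.4 in the other KO libraries. Psmb10 was at 15.7 FPKM in KO 2 and at 17.6 to 17.8 in the other KO libraries. H2-Aa was at 26.0 FPKM in control 2 and at 21 to 21.6 in the other controls, and its call held without control 2.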

How the results depend on the processing

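The 34 log2 fold changes were recomputed under 19 alternatives. Of 645 values, 539 kept their direction and side of the threshold, 67 lost the call, 21 gained one and 18 changed sign. The 14 calls among the 34 genes became 22 with DESeq2 (4189 genes called in all, 2083 in the main test) and 5 with control 3 and KO 4 both left out (1323 in all), and ran from 4 to 15 with 1 library left out (769 to 2230 in all). The GBP count of 1 became 6 with DESeq2, 5 with limma at a pseudocount of 0.5 or 1, 2 with limma at 0.1, with upper-quartile scaling or with counts divided by 4, and 0 with no filter or with both libraries left out; with 1 library left out it ran from 0 to 1. The IRG count of 6 became 3 with both left out and ran from 2 to 6. The regulator count of 1 became 2 with DESeq2 and 0 with both left out, and ran from 0 to 1. The class I count of 2, both lower, became 4 with DESeq2 (3 lower and 1 higher) and ran from 1 to 3, the 3 being 2 lower and 1 higher. The class II count of 4 became 0 with both left out and ran from 1 to 4. Omissions leave fewer libraries in the test, which by construction lowers its power. The count of 14, all lower, became 4 lower without control 2. Without KO 4 it became 15, of which 14 were lower and 1 was higher, and no single omission gave more than 14 lower. The cause was not tested for any setting.

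Replicate numbers did not pair the libraries: correlations of same-numbered deviations were 0.106, -0.172, 0.0916 and -0.055. With a replicate block 56 genes were called in all, and 1 of the 34, Tgtp2, an IRG, with 0 GBP, 0 regulator, 0 class I and 0 class II calls. Changes of sign were in genes near 0. Over single omissions Ifi47 ran from -0.15 to 0.38, Irf1 from -0.37 to 0.05, Psmb8 from -0.05 to 0.04, Psmb9 from -0.12 to 0.08 and Tap1 from -0.16 to 0.09. With control 3 and KO 4 both left out Psmb8 was 0.05, Psmb9 0.12 and Tap1 0.16, and with the block Tap1 was 0.01. No scaling moved the median of all genes by over 0.1.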
